A study of Homo sapiens with 4 samples.

Results

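Activins and bone morphogenetic proteins (BMPs) are secreted dimers of the TGF-beta superfamily, and follistatins and gremlin are secreted proteins that bind some of them and keep them from their receptors. The genes described here are 5 ligand genes (INHBA, INHBB, BMP2, BMP4 and BMP7), the distant superfamily ligand GDF15, and 4 genes of the follistatin family and gremlin (FST, FSTL1, FSTL3 and GREM1). They were taken by name: every probe set that the PrimeView annotation pairs with exactly 1 symbol, that symbol being among the 10 genes. This gave 25 of the 49293 probe sets of the array, and all 10 genes among the 18132 genes tested.

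The samples were 4 Affymetrix PrimeView arrays of RNA from Hs578T, a triple-negative breast cancer line with mesenchymal features. Per the labels, 2 arrays came from cells made stable for an shRNA against ELK3 by lentivirus (ELK3 knockdown, replicates 1 and 5), and 2 came from cells labelled ELK3 sh control (sh control, replicates 1 and 2). All were grown in serum-containing DMEM with insulin. What a replicate number stands for (a construct, a clone, a dish) is not given in the labels, nor is whether a line is a clone or a pool, so p-values measure the spread between these arrays, which may be technical.

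ELK3, an ETS family transcription factor that acts with serum response factor, read 8.09 and 7.92 in the knockdown arrays against 10.05 and 10.07 in the control arrays (RMA log2 signal; log2 change -2.06, SE 0.09, limma adjusted p = 2.57e-06). The arrays formed a pair per group: over all probe sets Pearson's r was 0.996 between the knockdown arrays, 0.902 to 0.904 between arrays of different groups, and 0.998 between the control arrays. The mesenchymal markers (VIM, FN1, CDH2, SPARC, COL1A1, COL1A2, ZEB1, AXL and THY1) were lower in the knockdown arrays for 9 of 9 genes, with a summed log2 signal of 74.3 to 74.8 in the knockdown arrays against 115.8 to 116.4 in the control arrays. AXL, COL1A1, COL1A2 and THY1 were below the median of all values (6.78) in both knockdown arrays. For these genes, the knockdown arrays go against the mesenchymal features given above for Hs578T. VIM, SPARC, CDH2, ZEB1 and FN1 were lower but stayed above that median in both knockdown arrays. VIM read 13.05 and 13.20 there, and FN1, the lowest of these, 8.21 and 7.56. Any other difference between the cells of the groups, including in the identity of the cells, cannot be told apart from the knockdown with these arrays, and each change given is one between these pairs of arrays. The epithelial markers summed to 43.9 to 44.7 in the knockdown arrays against 30.6 to 30.7 in the control arrays, through the keratin genes KRT8, KRT18 and KRT19 (3 of 5 past the threshold); the defining markers CDH1 and EPCAM lay between 3.67 and 4.50 in all 4 arrays. The hormone receptor and HER2 markers (ESR1, PGR, ERBB2) changed by -0.12 to 0.21 and did not pass. The leukocyte and endothelial markers had 1 of 5, PECAM1, which was lower (-0.58). Every result below separates the same pairs of arrays as these markers, and the part of these markers in the results was not tested. In RNA of whole cultures, fewer cells of a kind and less RNA per cell cannot be told apart.

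In mammary and other tissues, activins bind the type II receptors ACVR2A and ACVR2B, which recruit the type I receptors ACVR1B or ACVR1C and lead to phosphorylation of SMAD2 and SMAD3. BMPs use BMPR2 or the activin type II receptors with ACVR1, BMPR1A or BMPR1B, and act through SMAD1, SMAD5 and SMAD9. Antagonists act outside the cell: follistatin binds activins nearly irreversibly, and gremlin binds BMP2, BMP4 and BMP7.

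Ligand genes moved in both directions, and FST, FSTL1 and FSTL3 fell together. Of the 10 genes, 6 were lower and 3 higher in the knockdown arrays (limma over all genes, adjusted p under 0.05), and GDF15 did not pass. The 6 include GREM1 (-0.26, adjusted p = 0.0400), whose direction depended on the probe set. Over all genes tested, 21.3% were lower, 29.5% higher and 50.8% past the threshold in either direction. The median log2 change of the 10 genes was -1.17, against -0.01 over all genes. A change of over 2-fold was found for 7 of the 10 (5 lower and 2 higher) and for 17.7% of all genes. The 10 genes were chosen with earlier results of these data known. The shares over all genes or probe sets given beside them therefore do not test them as a set. All 10 genes were apart between the groups, as were 75.3% of all genes. By the selection of the series' design text, a fold over 1.5 with an unadjusted p under 0.05, 8 of the 10 were selected (3 higher and 5 lower), against 31.7% of all genes. Values of each gene are for its brightest probe set unless another is named, and the signals of different probe sets are not on a common scale, so no gene's level is set against another's.

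**Figure D1:**
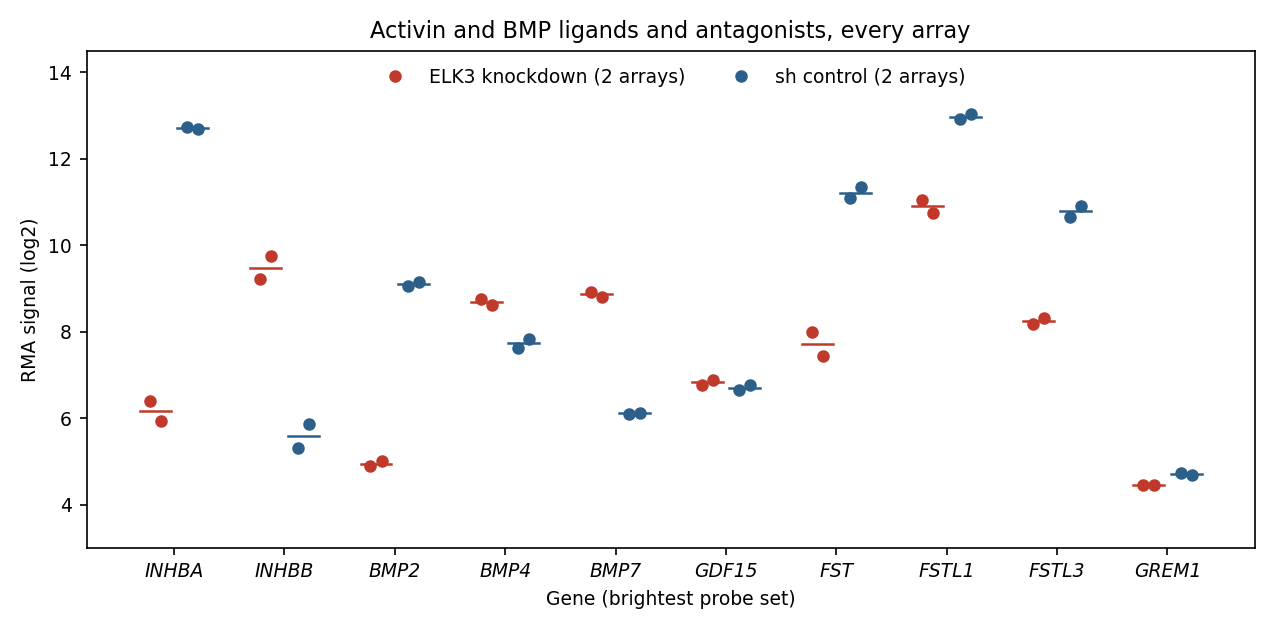
RMA log2 signal (vertical axis) of each of the 10 genes in every array, by the brightest probe set of each gene; red points are the 2 ELK3 knockdown arrays, blue points the 2 sh control arrays, and bars their means. INHBA, BMP2, FST, FSTL1 and FSTL3 sit lower in both knockdown arrays, INHBB, BMP4 and BMP7 higher, and GDF15 and GREM1 differ by under 0.3 log2 units between the group means.

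The activin subunit genes changed in opposite directions. INHBA encodes the beta A subunit, whose homodimer is activin A. INHBA read 6.39 and 5.93 in knockdown replicates 1 and 5, against 12.75 and 12.69 in control replicates 1 and 2. Its mean was 6.16 ± 0.33 in the knockdown arrays and 12.72 ± 0.039 in the control arrays (SD, n = 2 each), a 94.4-fold fall (log2 change -6.56, SE 0.15, 95% interval -6.91 to -6.21, adjusted p = 2.17e-07). Only 20 of the 18132 genes had a larger fall. The second INHBA probe set read 4.52 and 4.47 in the knockdown arrays, against 10.05 and 10.07 in the control arrays, and fell 47.6-fold (-5.57, SE 0.10, adjusted p = 9.71e-08 over all probe sets). Both knockdown arrays were thus low by either probe set, and the groups lay over 5 log2 units apart.

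INHBB encodes the beta B subunit, which forms activin B or, with beta A, activin AB. INHBB read 9.21 and 9.76 in the knockdown arrays, against 5.32 and 5.86 in the control arrays. Its mean was 9.48 ± 0.38 in the knockdown arrays and 5.59 ± 0.38 in the control arrays (SD, n = 2 each), a 14.9-fold rise (log2 change 3.90, SE 0.23, 95% interval 3.35 to 4.44, adjusted p = 1.04e-05). Replicates differed by 0.54 log2 units in each group, the widest spread within the control arrays among the 10 genes, and the rise was several times that. A larger rise was found for 118 genes. INHBB has a single probe set here. INHA, whose alpha subunit pairs with either beta subunit to form the inhibins, which oppose activins, read 6.31 and 6.60 in the knockdown arrays against 6.55 and 6.38 in the control arrays, with the groups overlapping (log2 change -0.0046, adjusted p = 0.984).

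The start-site windows of the INHBA and INHBB genes are shown because these paralogous subunit genes changed in opposite directions. Each holds 250 bases before to 50 bases from the annotated start, on the gene's strand, from RefSeq on GRCh38.p14: INHBA at chr7:41703041-41703340 on the minus strand, and INHBB at chr2:120345886-120346185 on the plus strand. Capitals mark the TATA box letters TATAAA and the letters GGCGCC, a GC element bound by SMADs that BMPs activate, on either strand.
INHBA: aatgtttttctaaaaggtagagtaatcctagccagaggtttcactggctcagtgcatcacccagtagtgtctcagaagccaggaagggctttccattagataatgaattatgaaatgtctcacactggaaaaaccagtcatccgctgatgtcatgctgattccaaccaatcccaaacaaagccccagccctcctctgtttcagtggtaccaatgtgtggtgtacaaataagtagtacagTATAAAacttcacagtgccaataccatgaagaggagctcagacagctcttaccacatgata
INHBB: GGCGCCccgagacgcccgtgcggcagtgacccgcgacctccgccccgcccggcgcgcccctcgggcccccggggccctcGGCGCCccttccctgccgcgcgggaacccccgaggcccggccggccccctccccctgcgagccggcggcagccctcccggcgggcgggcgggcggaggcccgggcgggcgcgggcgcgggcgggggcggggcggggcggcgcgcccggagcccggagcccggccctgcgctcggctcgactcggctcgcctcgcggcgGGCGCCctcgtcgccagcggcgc
The windows differ in base composition: G and C make up 43.3% of the INHBA window and 88.7% of the INHBB window, against a median of 58.7% over 35116 windows of this length. INHBA holds the letters TATAAA once, beginning 11 bases before the start, and INHBB holds 3 copies of the GC element. The TATA box letters are in 11.5% of all windows and in 3 of the 11 windows of the genes described (INHBA, GDF15 and FSTL3). The GC element is in 19.2% of all windows and in 5 of the 11 (INHBB, BMP4, FSTL1, FSTL3 and GREM1), which include genes that fell.

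The BMP genes also changed in opposite directions. BMP2, an inducer of bone and cartilage formation, read 4.88 and 5.0 in the knockdown arrays, against 9.07 and 9.15 in the control arrays. Its mean was 4.94 ± 0.083 in the knockdown arrays and 9.11 ± 0.062 in the control arrays (SD, n = 2 each), a fall (log2 change -4.17, SE 0.11, adjusted p = 3.63e-07). The second BMP2 probe set read 4.51 and 4.07 in the knockdown arrays and 8.40 and 8.09 in the control arrays, a 15.4-fold fall (-3.95, SE 0.18). The probe sets differed by 0.22 in log2 change.

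BMP4, the close paralog of BMP2 that signals through the same receptors, read 8.75 and 8.62 in the knockdown arrays, against 7.63 and 7.84 in the control arrays. The groups did not overlap, with means of 8.69 ± 0.089 in the knockdown arrays and 7.73 ± 0.15 in the control arrays (SD, n = 2 each), a 1.93-fold rise (log2 change 0.95, SE 0.11, 95% interval 0.69 to 1.22, adjusted p = 3.02e-04). Without moderation of the variances across genes the adjusted p was 0.0541. BMP4 has a single probe set, and 1986 genes had a larger rise.

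BMP7, a BMP with known roles in kidney and skeletal development, read 8.93 and 8.81 in the knockdown arrays, against 6.09 and 6.13 in the control arrays. Its mean was 8.87 ± 0.088 in the knockdown arrays and 6.11 ± 0.024 in the control arrays (SD, n = 2 each), a 6.76-fold rise (log2 change 2.76, SE 0.10, adjusted p = 1.38e-06). The second BMP7 probe set gave a larger rise: it read 9.39 and 9.14 in the knockdown arrays and 4.21 and 4.56 in the control arrays, 29.5-fold (4.88, SE 0.16, adjusted p = 7.08e-07 over all probe sets). The size of the BMP7 rise thus depends on the probe set, while its direction does not, and their average rose by 3.82.

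GDF15, a stress-responsive ligand that signals through GFRAL and RET, read 6.78 and 6.89 in the knockdown arrays, against 6.64 and 6.77 in the control arrays. The log2 change was 0.13 (SE 0.11, 95% interval -0.14 to 0.40, adjusted p = 0.392). The groups were separated by only 0.01 log2 units, and the interval leaves room for a rise of up to 0.40 or a fall of up to 0.14. Among its 5 probe sets, 1 passed in the fit over all probe sets: it read 4.79 and 5.04 in the knockdown arrays and 4.54 and 4.56 in the control arrays (0.37, SE 0.12, adjusted p = 0.0338). This is the only GDF15 probe set whose name does not mark cross-hybridisation, and its call was lost without knockdown replicate 5 (0.24) and without either control array. The other 4 changed by -0.12 to 0.25 and did not pass.

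FST, FSTL1 and FSTL3 were lower in both knockdown arrays by every one of their 8 probe sets, for which the background is 22.1% of all probe sets lower. FST, which encodes follistatin, read 7.99 and 7.44 in the knockdown arrays, against 11.10 and 11.34 in the control arrays. The means were 7.72 ± 0.39 in the knockdown arrays and 11.22 ± 0.17 in the control arrays (SD, n = 2 each), an 11.3-fold fall (log2 change -3.50, SE 0.18, 95% interval -3.92 to -3.08, adjusted p = 5.25e-06). A dimmer FST probe set gave a larger fall, with 5.33 and 5.39 in the knockdown arrays and 10.88 and 10.79 in the control arrays (44.4-fold, log2 change -5.47, SE 0.09). The remaining FST probe set fell 9.75-fold (-3.29).

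FSTL3 encodes a secreted follistatin-like protein that also binds activin and myostatin. FSTL3 read 8.19 and 8.32 in the knockdown arrays, against 10.65 and 10.92 in the control arrays, a 5.79-fold fall (log2 change -2.53, SE 0.11, adjusted p = 2.34e-06). Its other probe sets fell 10.9-fold and 5.31-fold (-3.44 and -2.41).

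FSTL1 encodes a secreted glycoprotein of the same domain family that is known to bind BMP4 and is abundant in mesenchymal cells. FSTL1 read 11.05 and 10.75 in the knockdown arrays, against 12.92 and 13.03 in the control arrays, a 4.22-fold fall (log2 change -2.08, SE 0.10, adjusted p = 4.19e-06). That probe set has a name that marks cross-hybridisation. The other FSTL1 probe set, whose name does not, read 7.55 and 7.31 in the knockdown arrays and 10.66 and 10.49 in the control arrays, an 8.85-fold fall (-3.15, SE 0.11).

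GREM1, the BMP antagonist gremlin 1, was at the dim end of all 4 arrays and its direction depended on the probe set. The brightest probe set read 4.44 and 4.46 in the knockdown arrays, against 4.73 and 4.69 in the control arrays (log2 change -0.26, SE 0.09, adjusted p = 0.0400). That call was lost without each array in turn, with adjusted p from 0.0834 without control replicate 2 to 0.156 without knockdown replicate 1. Another probe set read 4.54 and 4.40 in the knockdown arrays and 3.83 and 3.92 in the control arrays, a rise of 0.59 (SE 0.09, adjusted p = 0.00138 over all probe sets), and a further probe set rose by 0.53 (adjusted p = 0.00421). Averaged over the 4 GREM1 probe sets, the knockdown arrays were higher by 0.29 (adjusted p = 0.0267). All 16 GREM1 values lay between 3.63 and 4.73, below the median of all values (6.78).

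**Figure D2:**
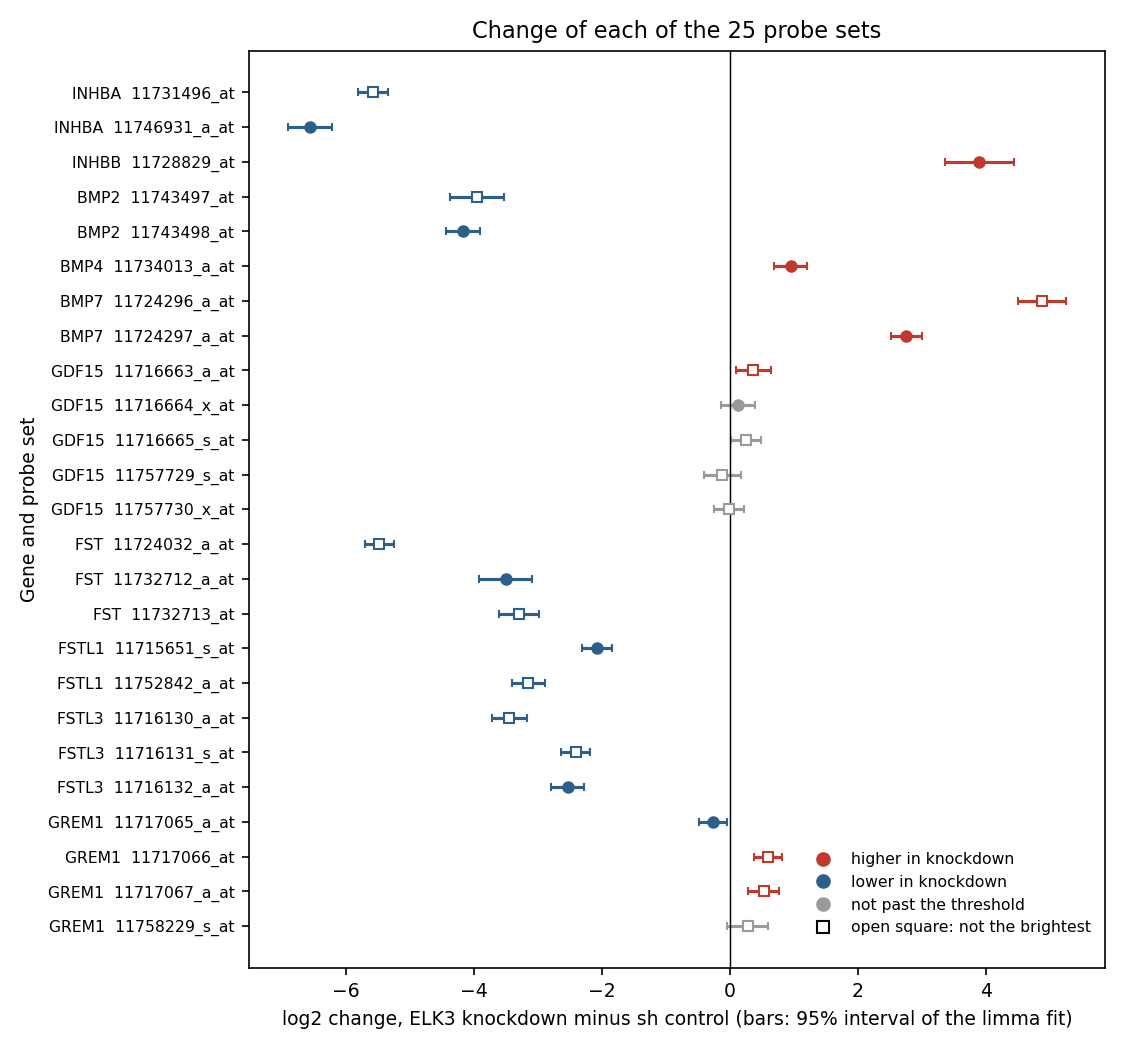
Log2 change (ELK3 knockdown minus sh control, horizontal axis) of each of the 25 probe sets with its 95% interval from the limma fit over all probe sets; filled circles are the brightest probe set of a gene, open squares the others, and colours give the call. The probe sets of INHBA, BMP2, FST, FSTL1 and FSTL3 all lie left of 0 and those of INHBB, BMP4 and BMP7 right of 0, while those of GDF15 and GREM1 lie on both sides.

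Over the 25 probe sets, 13 were lower and 7 higher at an adjusted p under 0.05 in the fit over all probe sets, where 22.1% were lower, 27.0% higher and 49.2% past the threshold. The probe sets of a gene share their transcript and are not independent measurements. The table gives no detection calls. Where a group lies at the dim end, the fold depends in part on the lowest signal the array can give. INHBA, BMP2 and FSTL3 lie there in the knockdown arrays by at least 1 probe set, and BMP7 in the control arrays by 1. The dimmer FST probe sets in the knockdown arrays (5.17 to 5.44) and INHBB in the control arrays (5.32 and 5.86) were also below the median of all values (6.78).

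Windows around the start site were matched for 8 of the 10 genes (11 windows, as BMP4 has 3 and GREM1 has 2). Besides the TATA box and the GC element above, the letters searched on both strands were CGGAAG (an ETS core), CCGGAAGT (a longer ETS site that contains the former letters), TGANTCA (AP-1), TGACGTCA (CRE) and GTCTAGAC (a SMAD palindrome). CGGAAG was in 1 window each of FSTL1, FSTL3 and GREM1, and in 19.5% of all windows. TGANTCA was in the FST window and in 7.71% of all. The longer ETS site was in 0 of the 11 windows and in 4.14% of all, the CRE in 0 and 1.85%, and the SMAD palindrome in 0 and 0.202%. The windows of FSTL1 (chr3:120450943-120451242, minus strand) and FSTL3 (chr19:676142-676441, plus strand) are shown because they belong to genes that fell and hold CGGAAG, the core letters bound by the ETS family to which ELK3 belongs. They were thus picked by both change and letters. INHBA and FST also fell, and their windows hold no CGGAAG. The GREM1 window with these letters is not shown, and the direction of GREM1 depended on the probe set. Capitals mark the ETS core, the GC element and the TATA box on either strand.
FSTL1: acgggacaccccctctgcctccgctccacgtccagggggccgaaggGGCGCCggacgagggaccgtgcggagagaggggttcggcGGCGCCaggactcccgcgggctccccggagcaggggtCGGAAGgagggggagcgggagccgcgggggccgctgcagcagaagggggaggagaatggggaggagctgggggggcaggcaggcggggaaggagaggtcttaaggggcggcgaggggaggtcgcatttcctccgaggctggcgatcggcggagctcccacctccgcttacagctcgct
FSTL3: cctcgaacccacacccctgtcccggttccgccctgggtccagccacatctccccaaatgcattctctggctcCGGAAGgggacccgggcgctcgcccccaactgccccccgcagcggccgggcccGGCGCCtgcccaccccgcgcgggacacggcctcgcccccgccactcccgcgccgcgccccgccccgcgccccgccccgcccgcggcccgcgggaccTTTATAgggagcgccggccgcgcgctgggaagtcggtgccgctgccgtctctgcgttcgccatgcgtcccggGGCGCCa
CGGAAG begins 128 bases before the start in FSTL1 and 178 bases before it in FSTL3. A match of letters is a description of the sequence and does not show binding.

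**Figure D3:**
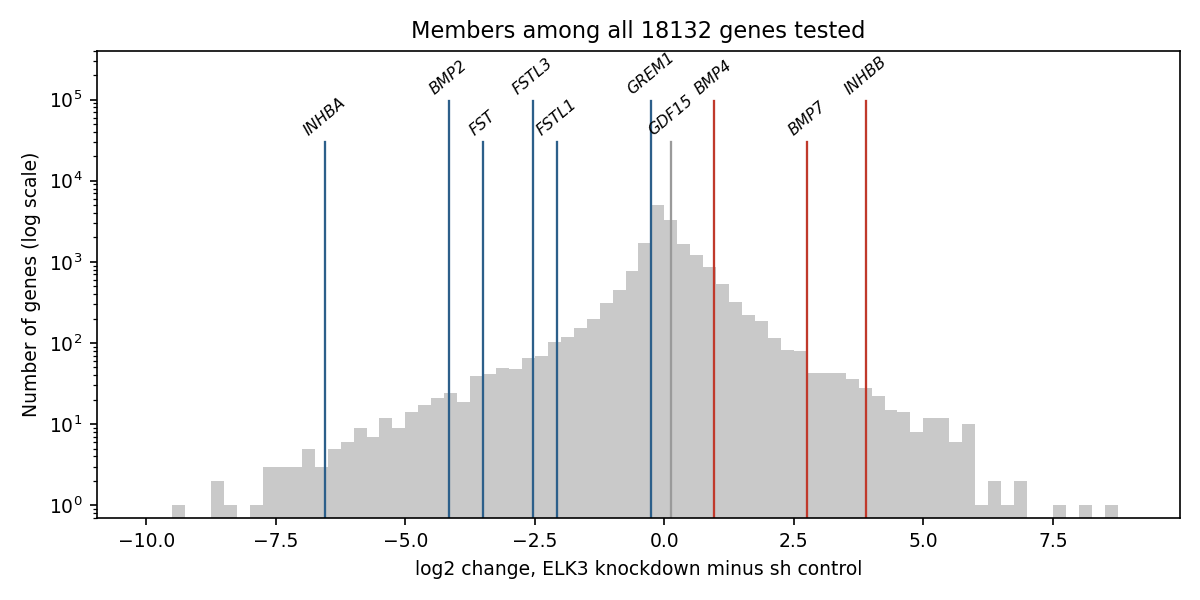
Number of genes (vertical axis, log scale) by log2 change (ELK3 knockdown minus sh control, horizontal axis, bins of 0.25) for all 18132 genes tested, with a line for each of the 10 genes in the colour of its call (blue lower, red higher, grey not past the threshold). INHBA at -6.56 and INHBB at 3.90 lie far out on either side, and GDF15 at 0.13 near the middle.

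Other ligand genes of the superfamily were read from a list of 23 genes, of which 22 were measured. Of these, 5 were higher, 3 lower and 14 did not pass, with a median log2 change of -0.07. Over all genes tested, 29.5% were higher and 21.3% lower. INHBE, the beta E subunit gene best known from liver, read 4.07 and 4.48 in the knockdown arrays against 8.97 and 8.78 in the control arrays, a 24.3-fold fall (-4.60, SE 0.16, adjusted p = 9.92e-07). BMP6, known for its control of hepcidin, was higher at 8.74 and 8.58 in the knockdown arrays against 5.80 and 5.90 in the control arrays (2.81, SE 0.11, adjusted p = 1.75e-06). BMP8B rose by 2.41 (0.93 averaged over its probe sets) and GDF11 by 0.43. The call of GDF11 was lost without control replicate 1 (0.33). GDF6 was lower but its knockdown arrays disagreed, at 8.18 and 6.35 against 9.62 and 9.77 in the control arrays (-2.43, SE 0.50, adjusted p = 0.00544; -3.35 without knockdown replicate 1, -1.52 without knockdown replicate 5, -1.46 averaged over its probe sets), and its call was lost with robust moderation (adjusted p = 0.0598) and with none (0.203). BMP3 was lower by 0.30 on the log2 scale, and did not pass without knockdown replicate 1 (-0.20) nor without control replicate 1 (-0.22).

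Of 17 other antagonist genes measured from a list of 19, 2 were higher, 4 lower and 11 did not pass, beside 29.5% higher and 21.3% lower over all genes. CRIM1, a transmembrane protein that binds BMPs, read 8.43 and 7.73 in the knockdown arrays against 11.24 and 11.38 in the control arrays (9.39-fold lower, log2 change -3.23, adjusted p = 1.53e-05). CHRDL1, a chordin-like BMP antagonist, read 7.54 and 7.32 in the knockdown arrays against 4.81 and 4.74 in the control arrays (2.66, adjusted p = 3.16e-06; 1.02 averaged over its probe sets). TWSG1 and BMPER, which bind BMPs and modulate their activity, were at -0.57 and -0.53 (BMPER at -1.13 averaged over its probe sets), and SOSTDC1, a secreted antagonist of BMPs and WNTs, at 0.56, a call lost averaged over its probe sets (0.23). Noggin (NOG) and chordin (CHRD), classical BMP antagonists, were at 0.19 and -0.03 and did not pass. The other follistatin-like genes of the list did not share the large falls of FST, FSTL1 and FSTL3. FSTL4 was at -0.002 and did not pass. FSTL5 was at -0.22, with values between 3.36 and 3.66 in all 4 arrays, and its call was lost with no intensity trend and without moderation.

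Receptor genes changed in both directions: of 15 measured from a list of 17, 6 were higher, 4 lower and 5 did not pass. Their median was 0.21, and the shares over all genes were 29.5% higher and 21.3% lower. ACVR2B, an activin type II receptor, read 9.25 and 8.75 in the knockdown arrays against 5.66 and 5.40 in the control arrays (11.1-fold higher, log2 change 3.47, adjusted p = 6.33e-06; 2.11 averaged over its probe sets). ACVR2A, its paralog, was at -0.13 and did not pass (adjusted p = 0.337). TGFBR3 (betaglycan), the co-receptor that lets inhibin compete with activin, read 10.41 and 10.45 in the knockdown arrays against 7.69 and 7.76 in the control arrays (2.70, adjusted p = 5.61e-07; 2.08 averaged over its probe sets). ACVR1B, an activin type I receptor, was higher by 1.66 (0.81 averaged over its probe sets). ACVR1C, another, was higher by 0.82 (0.48 so averaged), and the type II receptor BMPR2 was lower (-0.54). BMPR1B, a BMP type I receptor, was higher by 1.02, but at 0.25 it did not pass when probe sets whose names mark cross-hybridisation were left out. The BMP co-receptor RGMA was higher by 1.90 (1.16 averaged over its probe sets, 2.76 without those whose names mark cross-hybridisation). ACVR1, a BMP type I receptor, read 7.51 and 7.59 in the knockdown arrays against 9.76 and 9.56 in the control arrays (-2.11, adjusted p = 4.13e-06). RGMB was lower (-1.88, or -0.84 averaged over its probe sets), as was ENG, the endothelial co-receptor endoglin (-1.55, or -2.74 so averaged). GFRAL, the GDF15 receptor, lay between 3.46 and 3.62 in all 4 arrays and did not pass (-0.06).

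Among the SMAD and SMURF genes, 5 of 10 were higher, 3 lower and 2 did not pass, with a median of 0.33. The background over all genes was 29.5% higher and 21.3% lower. The SMADs of the BMP branch were all higher: SMAD9 by 0.79, SMAD5 by 0.58 and SMAD1 by 0.53 (adjusted p = 9.94e-04, 8.10e-04 and 0.00128), and without moderation SMAD9 and SMAD5 did not pass (adjusted p = 0.0573 and 0.0736). The activin-branch SMAD3 read 9.68 and 9.38 in the knockdown arrays against 11.34 and 11.36 in the control arrays (3.54-fold lower, log2 change -1.82, adjusted p = 8.96e-06), and the common SMAD4 was at -0.51. SMAD2 was at -0.28, a call lost without either control array (-0.30 and -0.25) and averaged over its probe sets (-0.14). The inhibitory SMAD6 was higher by 0.76, and the inhibitory SMAD7 was at 0.20 and did not pass.

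Known target genes split: of 12 measured from a list of 13, 7 were lower, 4 higher and 1 did not pass. Their median was -0.90, beside 21.3% lower and 29.5% higher over all genes. ID1, ID2 and ID3, the common BMP response genes, were lower: ID3 read 10.89 and 11.07 in the knockdown arrays against 12.91 and 12.76 in the control arrays (-1.85), ID2 changed by -1.63 and ID1 by -1.12. ID4, MSX1, MSX2 and HEY1, which BMPs can also induce, were higher. ID4 read 11.29 and 11.05 in the knockdown arrays against 4.04 and 4.42 in the control arrays. Its change of 6.94 (4.97 averaged over its probe sets) thus depends in part on the lowest signal the array can give. HEY1 changed by 3.39, MSX1 by 2.84 and MSX2 by 2.18 (1.41 without probe sets whose names mark cross-hybridisation). PMEPA1, induced by TGF-beta and activin through SMAD3, read 7.91 and 7.73 in the knockdown arrays against 10.52 and 10.41 in the control arrays (-2.65, adjusted p = 1.12e-06). CCN2 was lower with knockdown arrays that disagreed, at 10.52 and 8.63 against 12.13 and 12.09 in the control arrays (-2.53; -3.48 without knockdown replicate 1 and -1.59 without knockdown replicate 5), and its call was lost with robust moderation (adjusted p = 0.0908) and with none (0.201).

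The proteases that cleave precursors had 2 of 6 genes higher, 3 lower and 1 not past the threshold. For this list and the stress response genes below, the background is 29.5% higher and 21.3% lower over all genes. The proprotein convertase genes PCSK5 and PCSK6 were higher by 2.31 and 2.15 (PCSK6 by 1.34 averaged over its probe sets), FURIN was at 0.04 (adjusted p = 0.758), and BMP1, which despite its name is a procollagen protease that also cleaves chordin, was at -2.19. PCSK7 was at -0.36 and TLL1 at -0.33. The PCSK7 call was lost without either control array, and that of TLL1 without knockdown replicate 1 or either control array. Of 11 stress response genes, some of which are known to induce GDF15, 4 were higher, 4 lower and 3 did not pass. MDM2, a ubiquitin ligase, and CDKN1A, a cell cycle inhibitor, were higher by 2.12 and 1.93 and ATF4, a transcription factor of the stress response, by 0.57. EGR1 was at -2.91 (-2.02 averaged over its probe sets), NUPR1 at -2.88 (6.57 and 8.22 in the knockdown arrays against 10.20 and 10.34 in the control arrays; -2.05 without knockdown replicate 1 and -3.70 without knockdown replicate 5), and CHAC1 at -1.93. DDIT3 was at -0.57 and did not pass (adjusted p = 0.0713).

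**Figure D4:**
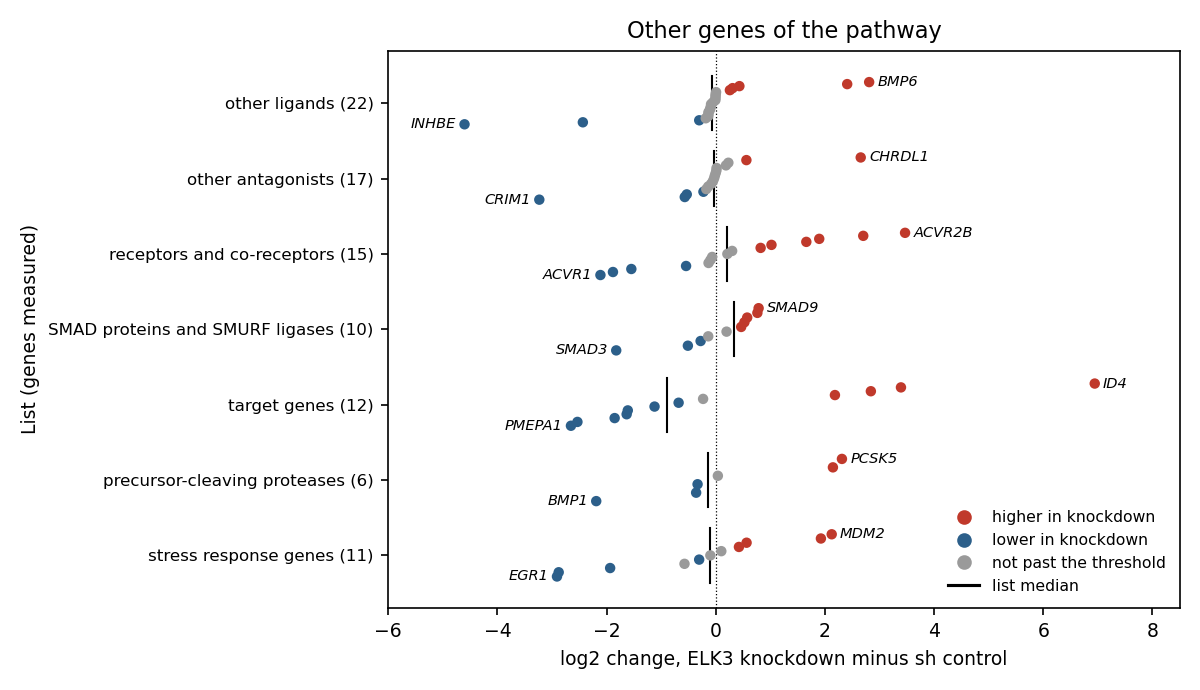
Log2 change (ELK3 knockdown minus sh control, horizontal axis) of the measured genes of 7 lists of other pathway genes (vertical axis, with the number measured); each point is a gene, coloured by its call, black bars are list medians, and the gene at each end is named. The lists hold genes on both sides of 0, from INHBE at -4.60 to ID4 at 6.94.

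Over these 7 lists together, 28 of 93 measured genes were higher and 28 lower (median log2 change -0.05), against 29.5% and 21.3% of all genes. Without moderation of the variances 27 of these 56 calls were lost, at an adjusted p of 0.0503 (CDKN1A) to 0.246 (BMP3). Of the genes named here these were BMP3, GDF6, GDF11, TWSG1, SOSTDC1, FSTL5, ENG, RGMA, BMPR1B and ACVR1C. SMAD2, SMAD5, SMAD6, SMAD9, CCN2, TLL1, CDKN1A, EGR1, NUPR1 and CHAC1 were also among them. The remaining 7 of the 100 listed genes were not analysed here.

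The genes whose values over the 4 arrays lay nearest to those of the 3 most changed genes were found by Euclidean distance between deviations from the control mean. Nearest to INHBA were LOX (distance 0.19 log2 units), NNMT (0.22) and NT5E (0.46). Nearest to BMP2 were COPZ2 (0.04), LOXL2 (0.08) and SFRP2 (0.11), and nearest to INHBB were NFATC1 (0.22), RAB38 (0.30) and CDKN1C (0.33). With 4 arrays in 2 tight pairs this likeness mostly measures a change of the same size.

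Of the 20 measured genes that lie next to the 10 genes on their chromosomes, 7 were lower, 1 higher and 12 did not pass, beside 21.3% lower and 29.5% higher over all genes. The largest change was that of SCG5, beside GREM1, at -7.00, where GREM1 itself was at -0.26. SUGCT, beside INHBA, was at -2.67, and GLI3, on the other side of INHBA, at 0.18. These neighbours were picked by position and named after their values were seen.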

How the data were processed

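The deposited table holds RMA log2 values, 1 per probe set and array, which the authors made with RMA (per the submitters' processing notes, which name neither version nor steps in the sources used here). No array is a copy of another (0 identical pairs), and array medians lie between 6.76 and 6.80. With no read depth, the number of arrays limits precision.

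Names came from the platform annotation (44988 with 1 symbol, 1832 with several, 2473 with none), and probe sets with several symbols named no gene. For each of 18132 genes the brightest probe set, by its mean over the 4 arrays, was read. Knockdown and control arrays were compared in R 4.3.3 by limma 3.58.1 (lmFit, eBayes with an intensity trend, two-sided, Benjamini-Hochberg adjusted p under 0.05), over all genes and separately over all 49293 probe sets, with 2 residual degrees of freedom and a prior of 4.83 and 4.95. An exact permutation test of 2 arrays against 2 cannot give a p below 0.333, so none is given.

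Named genes were the 10 genes, ELK3, the markers, up to 3 largest rises and falls past the threshold of each pathway list, and the nearest patterns; any other was picked with its values in view. The members and lists were chosen with earlier results of these data known. Start-site windows come from RefSeq on GRCh38.p14, and its gene table served only to find neighbours. Alternatives were no trend, robust or no moderation, other probe set choices, dim features left out, other normalizations, other thresholds, and leaving out each array. Figures used matplotlib 3.10.9 in Python 3.11.15.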

Additional observations from a re-analysis of the deposited data

How the results depend on the processing

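INHBA, INHBB, BMP2, BMP7, FST, FSTL1 and FSTL3 kept their direction and their call under every alternative run. The number of the 10 genes past the threshold stayed between 8 and 10. With dim genes left out GREM1 was not tested, and 8 of 9 passed. The share of all genes past the threshold is given for only 1 alternative, the selection of the series' design text (31.7%). The other counts in this section thus have no background beside them and do not show that these genes are more stable than others. Of 139 values of the 10 genes under alternatives, 129 kept direction and side of the threshold. The trend, moderation and threshold alternatives leave each log2 change as it is, so under them only a call could change. The same holds for averaging in a gene with a single probe set. GREM1 turned to 0.29 when its probe sets were averaged; this value is an average over probe sets that differ in sign. BMP4 lost its call without moderation, and GDF15 passed (0.37) when probe sets with names that mark cross-hybridisation were left out, which changes the probe set read. Of the 25 probe sets, 20 passed, and 16 to 20 did under the alternatives that keep all 25. With those whose names mark cross-hybridisation left out 17 of 18 passed, and with dim ones left out 16 of 17. A probe set was kept as not dim if its mean in either group exceeded the median of all values. It can thus stay through its high group alone, so the count with dim ones left out does not add to the calls. Of the 93 pathway genes, 56 passed; 30 did so without moderation (16 higher and 14 lower) and 37 by the selection of the series' design text (19 higher and 18 lower), which asks for a larger change. Leaving out each array in turn gave 8 of the 10 genes in each case, 18 to 19 probe sets, and 49 to 55 pathway genes; the lone array of a group is then assumed to vary like the other group. Of 788 values of ELK3 and the 56 pathway genes under alternatives, 87 lost their call and 0 reversed. Here too, a reversal was possible only under the alternatives that alter the log2 change itself. No paired analysis was possible, as the labels give no pairs. The groups share only replicate number 1, and what a replicate number stands for is not given. RMA values carry no detection call, so GREM1 and the dim side of large folds are limited by the floor of the array.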
